A study of Mus musculus with 6 samples.

Results

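The genes described here are those of polyamine metabolism: *Odc1*, *Amd1*, *Amd2*, *Srm*, *Sms*, *Sat1*, *Smox*, *Paox*, *Oaz1* and *Azin1*. They were taken by symbol from a table of 24532 mouse genes, and all 10 were found. RNA-seq had been performed on gastrocnemius (GAS) muscle of mice given as C57BL/6, male by the study's methods, at 20 weeks of age. The study's methods and its reporting summary name different floxed *Sirt6* lines. The summary's line is from a stock of mixed background, so a uniform strain cannot be assumed. The WT group was *Sirt6* flox/flox without Cre (n = 3), and the *Sirt6* KO group was *Myl1-Cre*; *Sirt6* flox/flox (n = 3), so that both groups carried the floxed alleles of *Sirt6*, a NAD+-dependent deacylase of chromatin. *Myl1* is a fast myosin light chain, and its Cre acts from embryonic life and mainly in type II (fast) fibers, so that slow fibers and the other cells of the muscle may keep the gene. The Cre line without floxed *Sirt6* was not among the libraries. The comparison asks whether the mRNA of the polyamine enzymes and their regulators differed between the genotypes.

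The polyamines putrescine, spermidine and spermine are small positively charged molecules that bind nucleic acids and are needed for growth and translation. Ornithine decarboxylase makes putrescine, and *Srm* and *Sms* then add aminopropyl groups that S-adenosylmethionine decarboxylase provides. Spermine is turned back by oxidation or by acetylation followed by oxidation, while antizyme removes ornithine decarboxylase and antizyme inhibitor holds antizyme back. In skeletal muscle several of these genes are known to respond to androgens, and *Smox* is known to fall in wasting muscle.

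The libraries held between 44845763 and 63016899 counts on genes, with WT 1 and WT 2 the shallowest, and 1 count was worth 0.0165 to 0.0212 CPM (counts scaled to a common library size with TMM factors, the level used below unless TPM is named). For *Sirt6* itself, the *Sirt6* KO label went with the higher values, 6.68 to 7.81 CPM against 2.23 to 2.88 CPM in WT (log2 fold change 1.48 with a standard error, SE, of 0.17, edgeR adjusted p = 0.0113). Counts per gene do not separate the deleted exons, and groups are named by their labels. All 8 myofiber markers were above 1 CPM in every library, at a summed 133000 to 216300 CPM, and the neutrophil markers were at most 0.446 CPM with *Ly6g* at 0 throughout. The libraries of a group were not alike in fiber type: the 8 slow-fiber markers summed to 3583, 2960 and 135.7 CPM in WT 1, WT 2 and WT 3, and to 364.5, 2114 and 503.9 CPM in *Sirt6* KO 1, 2 and 3. WT 3 thus lay below all 3 *Sirt6* KO libraries. Among the erythroid markers, *Hbb-bt* and *Hbb-b2* were not found together in any library. *Hbb-bt* was at 55.5, 52.1 and 0 CPM in WT 1, 2 and 3, and at 0, 31.5 and 0 CPM in *Sirt6* KO 1, 2 and 3. *Hbb-b2* was at 0, 0 and 9.32 CPM in WT and at 25.9, 0 and 17.2 CPM in *Sirt6* KO. The part of strain background in this was not tested. The 5 satellite cell markers summed to 21.4 to 28.0 CPM in WT and 35.5 to 47.6 CPM in *Sirt6* KO, most of it *Cdh15*. Of these, *Pax7*, *Myf5* and *Cdh15* were called higher, and *Calcr* (log2 fold change -0.63) and *Vcam1* (-0.26, the groups not overlapping) had lower estimates that were not called; the part of such cells in the results below was not tested. Because WT 3 stands apart from WT 1 and WT 2, values without it are given below beside the results that rest on it. By chi-square per gene it differed less from the *Sirt6* KO libraries (183 to 211) than from WT 1 (281) and WT 2 (315). Leaving it out thus removes the WT library most like *Sirt6* KO, and 32.5% of all genes were then called, against 16.2% with it. In bulk muscle, fewer cells of a type and less RNA per cell cannot be told apart.

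Of the 10 polyamine genes, 1 passed the test, *Azin1*, which was lower in the libraries labelled *Sirt6* KO, and no member was called higher. At an unadjusted p under 0.05 there were 3 (*Amd1* and *Azin1* lower, *Paox* higher), beside 35.3% of all genes tested. DESeq2 called 2, both lower, beside 19.8% of all genes called in either direction by that test. All 10 were expressed strongly enough to be tested. Over the whole table of 13801 genes tested, 8.39% were called lower and 7.85% higher (adjusted p under 0.05), so 1 lower call among 10 was near the background share. Point estimates were lower for 5 members and higher for 5, with a median log2 fold change of 0.04 against -0.02 over all genes tested. In 3 members (*Srm*, *Paox* and *Azin1*) the groups did not overlap in normalized CPM, beside 40% of all genes tested. In TPM the groups overlapped for *Srm* and *Paox*. Without WT 3, 4 members were called: *Azin1* and *Amd1* lower, and *Smox* and *Amd2* higher, where 32.5% of all genes were then called in either direction.

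**Figure D1:**
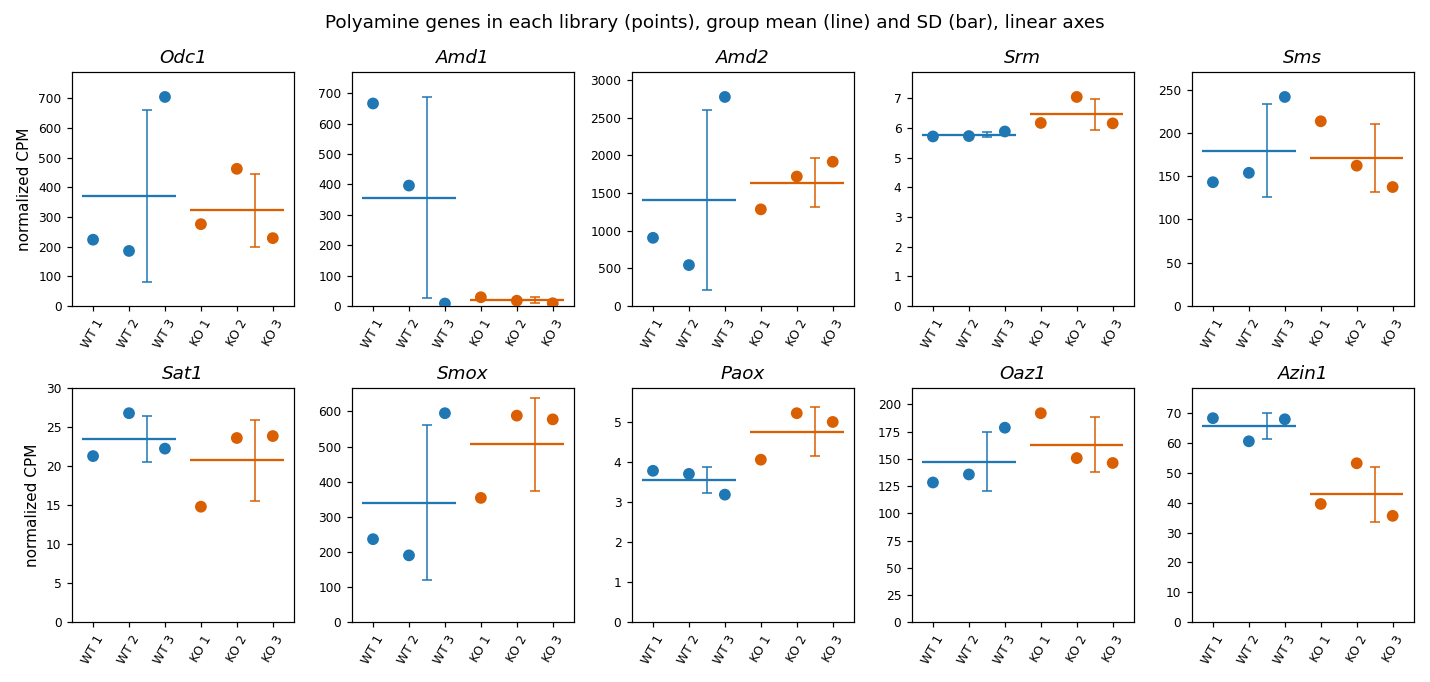
Level of each of the 10 polyamine genes (vertical axis, normalized CPM, linear and from 0) in WT 1 to 3 (blue) and *Sirt6* KO 1 to 3 (orange), with the group mean as a line and the SD as a bar. *Azin1* lies between 60.5 and 68.3 CPM in WT and between 35.6 and 53.2 CPM in *Sirt6* KO, whereas *Odc1*, *Amd1*, *Amd2* and *Smox* are spread widely within WT, with WT 3 apart from WT 1 and WT 2.

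*Azin1* encodes antizyme inhibitor 1, a homolog of ornithine decarboxylase that lacks its activity and binds antizyme in its place. The gene (NCBI gene 54375) spans 38487430 to 38519294 on the minus strand of chromosome 15 (GRCm38). WT 1, 2 and 3 gave 68.3, 60.5 and 67.9 CPM, and *Sirt6* KO 1, 2 and 3 gave 39.6, 53.2 and 35.6 CPM. Every *Sirt6* KO library was below every WT library, and the nearest pair was WT 2 and *Sirt6* KO 2. The mean fell from 65.5 ± 4.36 to 42.8 ± 9.22 CPM (SD, n = 3 each). On the log2 scale this was a change of -0.62 (SE 0.16, 95% interval -0.99 to -0.24, edgeR adjusted p = 0.0425). An exact two-sided permutation test gave p = 0.1, the smallest that 3 libraries against 3 allow. The direction was the same under all 16 alternative settings, with adjusted p from 0.00631 to 0.293, and the call was kept in 9 of them. It was lost when a trend over GC content was removed from each library (log2 fold change -0.28, adjusted p = 0.293), with no filter on low counts (-0.61, adjusted p = 0.0578), with the replicate number as a block (-0.64, adjusted p = 0.0643), and without WT 1, WT 2, *Sirt6* KO 1 or *Sirt6* KO 3 (adjusted p = 0.125, 0.0898, 0.142 and 0.146). In those fits fewer of all genes were called as well: 6.91% with the GC trend removed, against 16.2% in either direction otherwise, and 3.15%, 1.78%, 0.0568% and 0.0921% without WT 1, WT 2, *Sirt6* KO 1 and *Sirt6* KO 3, with 6.21% without *Sirt6* KO 2. The share over all genes was 19.8% by DESeq2, 16.5% with DESeq2's size factors, 10% with no filter on low counts, 18.5% with at least 10 counts in every library, 13.9% with the replicate number as a block, 28.7% and 27.6% with the slow-fiber or erythroid sum as a covariate, and 24.6% by limma with either pseudocount.

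*Oaz1* encodes antizyme 1, the protein that *Azin1* binds, which delivers ornithine decarboxylase to the proteasome and also lowers polyamine uptake. Its level was 128, 136 and 179 CPM in WT 1, 2 and 3, and 192, 151 and 146 CPM in *Sirt6* KO 1, 2 and 3. The groups overlapped, and the means of 147 ± 27.2 and 163 ± 25.2 CPM (SD, n = 3) differed by 0.14 on the log2 scale (SE 0.17, 95% interval -0.26 to 0.55, edgeR adjusted p = 0.587). Per unit of length, the TPM of *Azin1* was 0.116, 0.0981 and 0.0836 of that of *Oaz1* in WT 1, 2 and 3, and 0.0452, 0.0777 and 0.0536 in *Sirt6* KO 1, 2 and 3. The inhibitor was therefore the scarcer transcript of the pair in every library, and the ratio did not overlap between the groups (geometric means 0.0985 and 0.0573, log2 difference -0.78, exact permutation p = 0.1, 0.7 after adjustment over the 7 ratios compared). This ratio carries the difference in *Azin1* already described and is no separate evidence of it.

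*Odc1* encodes ornithine decarboxylase, the enzyme that makes putrescine and the target of antizyme. The gene (NCBI gene 18263) lies on the plus strand of chromosome 12, from 17544808 to 17551502. It was measured at 223, 186 and 704 CPM in WT 1, 2 and 3, and at 276, 462 and 229 CPM in *Sirt6* KO 1, 2 and 3. WT 3 was the highest of the 6 libraries and WT 2 the lowest, so that the *Sirt6* KO values lay inside the WT range. The log2 fold change was -0.20 (SE 0.52, 95% interval -1.42 to 1.01, edgeR adjusted p = 0.809), an interval that leaves room for a change of more than 2-fold either way. The sign rested on WT 3: without it the log2 fold change was 0.66 (adjusted p = 0.142). The SD of log2 CPM was 1.04 within WT, above that of 95.6% of all genes tested, whose median was 0.246. The ratio of *Odc1* to *Oaz1* TPM ranged from 0.577 to 1.66 in WT and from 0.606 to 1.29 in *Sirt6* KO (log2 difference -0.15, exact permutation p = 0.7), with a log2 difference of 0.30 without WT 3.

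S-adenosylmethionine decarboxylase makes the aminopropyl donor for both synthases, and the mouse has a pair of nearly identical genes for it. *Amd1* (NCBI gene 11702) lies on the minus strand of chromosome 10, from 40287458 to 40302188, with 8 exons, and *Amd2* (NCBI gene 100041585) on the same strand from 35708691 to 35711891, with 1 exon. Their coding sequences of 1005 bases were the same at 1004 positions (GENCODE M21, GRCm38), and their transcripts of 3204 and 3218 bases matched at 99.13% of aligned bases. The single coding difference was G796C, counted from 1 at the A of the start codon with the *Amd1* base first. The stretch around it is shown because it is where coding reads could be told apart. The capital marks the differing base, and both lie on the minus strand, at chr10:40290146-40290206 for *Amd1* and chr10:35710724-35710784 for *Amd2*.
Amd1: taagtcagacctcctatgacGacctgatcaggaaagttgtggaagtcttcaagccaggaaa
Amd2: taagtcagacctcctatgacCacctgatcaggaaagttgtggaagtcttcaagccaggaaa
Of the 906 windows of 100 bases (the read length) in the coding sequence of *Amd1*, 806 were found letter for letter in *Amd2* (89%), and of the 3105 windows of its whole transcript, 2273 were (73.2%). A read from such a window carries no base that tells the genes apart. The reads were paired, so a mate from outside such a window may do so, and these shares hold for single reads. How reads that match more than 1 place were counted is not given in the sources used here.

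The counts given to *Amd1* differed far more between libraries than those of both genes together. *Amd1* was at 667, 397 and 8.20 CPM in WT 1, 2 and 3, and at 29.0, 17.5 and 9.17 CPM in *Sirt6* KO 1, 2 and 3. WT 1 and WT 2 were high, and WT 3 was the lowest of all 6 libraries, below the 3 *Sirt6* KO libraries. The log2 fold change was -4.27 (SE 1.28, 95% interval -7.27 to -1.27), which did not pass the test (edgeR adjusted p = 0.0615, exact permutation p = 0.4). Without WT 3 it was -4.84 and was called (adjusted p = 0.00473), as it was by DESeq2 with all libraries (-4.26, adjusted p = 0.0103). With the erythroid sum as a covariate it was also called, at -2.02 (adjusted p = 0.0234), and with the slow-fiber sum it was -1.82 and not called (adjusted p = 0.201). The SD of log2 CPM within WT, 3.46, was above that of 99.94% of all genes tested.

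*Amd2* was at 906, 544 and 2777 CPM in WT 1, 2 and 3, and at 1284, 1720 and 1916 CPM in *Sirt6* KO 1, 2 and 3. Here WT 3 was the highest library and WT 2 the lowest, the reverse of *Amd1* for WT 3. Its log2 fold change was 0.22 (SE 0.55, 95% interval -1.06 to 1.5, edgeR adjusted p = 0.803), and 1.18 without WT 3 (adjusted p = 0.0215).

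Of the counts on both genes, *Amd1* took 42.4% in WT 1 (exact 95% interval 42.05 to 42.74, 78425 counts) and 42.15% in WT 2 (41.69 to 42.62, 44340 counts). In WT 3 the share was 0.295% (0.269 to 0.322, 159611 counts). The *Sirt6* KO libraries gave 2.21% (2.104 to 2.313), 1.00% (0.945 to 1.07) and 0.476% (0.436 to 0.520), each over at least 76822 counts. The libraries thus fell at either about 42% or near 2% and below, with libraries of the WT label on both sides; the intervals cover counting error only. Slow-fiber markers were also highest in WT 1 and WT 2, but at 2114 CPM in *Sirt6* KO 2, where the share was 1.00%, and the 7 erythroid markers summed to 297 and 291 CPM in WT 1 and WT 2 against 56.1 to 181 CPM in the other 4 libraries. Their part in the share was not tested.

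Summed over both genes, the level was 1572, 941 and 2785 CPM in WT 1, 2 and 3, and 1313, 1738 and 1925 CPM in *Sirt6* KO 1, 2 and 3. The groups overlapped, with WT 2 lowest and WT 3 highest. The means were 1766 ± 938 and 1659 ± 314 CPM (SD, n = 3), and the log2 fold change was -0.09 (SE 0.37, 95% interval -0.97 to 0.78, edgeR adjusted p = 0.884). Without WT 3 it was 0.40 (adjusted p = 0.274). The sum does not decide whether *Amd1* alone differed. *Amd1* had a mean of 357 CPM in WT, less than the SD of the sum there (938 CPM). A loss of *Amd1* alone could therefore pass unseen in the sum.

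**Figure D2:**
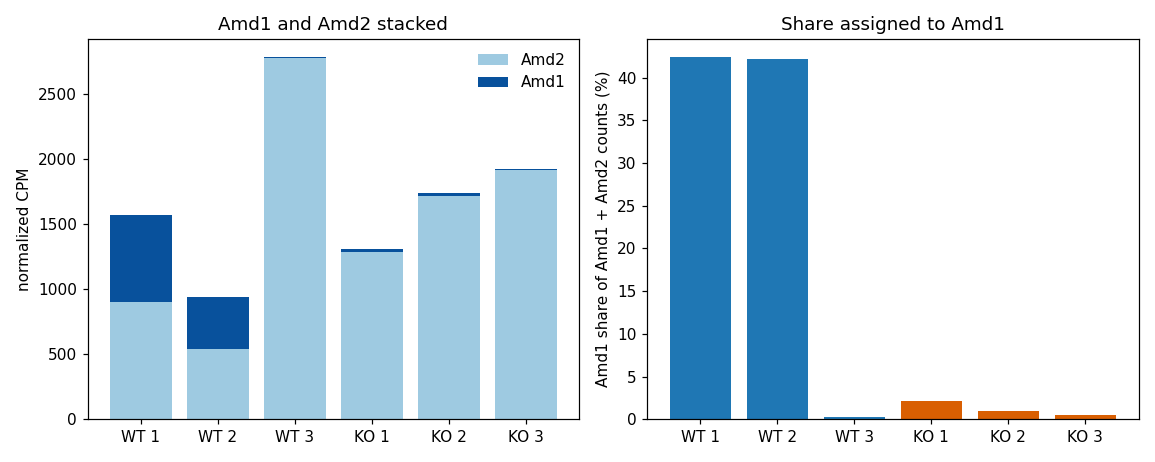
Left, normalized CPM of *Amd1* (dark) stacked on *Amd2* (light) in each library. Right, the percent of the counts on both genes that was given to *Amd1*, in WT (blue) and *Sirt6* KO (orange). The share is 42.4% and 42.15% in WT 1 and WT 2 and at most 2.21% in the other 4 libraries, while the summed level of WT (941 to 2785 CPM) spans that of *Sirt6* KO (1313 to 1925 CPM).

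The sequences before the start sites of the *Amd* genes were not alike. The 100 bases before the outermost start that RefSeq or GENCODE gives are shown, 5′ to 3′ on the minus strand (RefSeq, GRCm38.p6), to set the promoters of otherwise matching genes side by side: chr10:40302189-40302288 for *Amd1* and chr10:35711893-35711992 for *Amd2*. The capitals mark the half-site TGACG of the cAMP response element (CRE), read on the opposite strand.
Amd1: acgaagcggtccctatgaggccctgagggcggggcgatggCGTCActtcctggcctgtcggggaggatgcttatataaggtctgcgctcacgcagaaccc
Amd2: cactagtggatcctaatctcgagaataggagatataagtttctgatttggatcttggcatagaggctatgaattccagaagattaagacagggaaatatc
G or C made up 63% of the *Amd1* stretch and 38% of the *Amd2* stretch. Windows from 250 bases before to 50 bases after the start site were at hand for 8 of the 10 members. They were searched on both strands for TGACG, for the full CRE TGACGTCA (which contains TGACG), the E-box CACGTG, the TATA motif TATAAA and the palindromic glucocorticoid response element. TGACG was found in the windows of *Amd1* (at -60 from the window's start site), *Odc1* (-79, which is -14 from the start of the gene as given above, since the window is set on a start further in) and *Oaz1* (-221 and -13), and in 20.8% of the 32851 windows of the table. The E-box was found in *Sms* (at -196, 7.15% of windows) and the TATA motif in *Oaz1* (at -3 from the start site, 13.6% of windows). Only exact strings were counted, so near forms such as tatataag in the *Amd1* stretch above were not. The full CRE (1.79% of windows) and the glucocorticoid element (0.0487%) were not found in the 8 windows. A match is a description of letters, not of a bound site.

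*Srm* and *Sms* encode spermidine synthase and spermine synthase, which use the aminopropyl donor in turn. *Srm* was at 5.71, 5.73 and 5.88 CPM in WT 1, 2 and 3, and at 6.17, 7.05 and 6.16 CPM in *Sirt6* KO 1, 2 and 3. The *Sirt6* KO libraries were all above WT, by a small margin, and the log2 fold change of 0.16 (SE 0.14, 95% interval -0.17 to 0.49) did not pass the test (edgeR adjusted p = 0.439). The SD of log2 CPM of *Srm* within WT was 0.0229, only 0.978% of all genes tested being below it. This closeness rests on 285, 270 and 337 counts in WT 1, 2 and 3. In TPM the same libraries were further apart, at 10.3, 9.72 and 8.53. *Sms* was at 143, 154 and 242 CPM in WT 1, 2 and 3, and at 214, 162 and 138 CPM in *Sirt6* KO 1, 2 and 3. Its groups overlapped throughout (log2 fold change -0.07, SE 0.24, 95% interval -0.64 to 0.50, edgeR adjusted p = 0.863). With the trend over GC content removed, *Srm* (-0.10) and *Sms* (0.14) changed sign, again without passing the test.

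*Smox* encodes spermine oxidase, which returns spermine to spermidine. The gene (NCBI gene 228608) lies on the plus strand of chromosome 2, from 131491858 to 131525183. It was at 236.5, 190.4 and 595 CPM in WT 1, 2 and 3, and at 354, 588 and 577 CPM in *Sirt6* KO 1, 2 and 3. WT 1 and WT 2 were below every *Sirt6* KO library. WT 3 was the highest in CPM, just above *Sirt6* KO 2, but in TPM it was below that library (537 against 546). The means were 341 ± 221 and 506 ± 132 CPM (SD, n = 3), with a log2 fold change of 0.57 (SE 0.43, 95% interval -0.44 to 1.58, edgeR adjusted p = 0.376). Without WT 3 it was 1.25 and was called (adjusted p = 0.0149). A fit with the slow-fiber sum as a covariate gave 0.65 (adjusted p = 0.175).

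*Paox* encodes the peroxisomal oxidase that acts on acetylated polyamines. It was at 3.79, 3.71 and 3.19 CPM in WT 1, 2 and 3, and at 4.07, 5.23 and 5.01 CPM in *Sirt6* KO 1, 2 and 3. All *Sirt6* KO libraries were above WT in CPM, the means being 3.57 ± 0.324 and 4.77 ± 0.618 CPM (SD, n = 3). In TPM the groups overlapped (3.65 to 5.21 in WT, 4.94 to 5.99 in *Sirt6* KO). The log2 fold change of 0.42 (SE 0.18) did not pass the test (edgeR adjusted p = 0.140, unadjusted p = 0.0490), and over the 16 alternatives it lay between 0.27 and 0.53 without being called. *Sat1*, the acetyltransferase that prepares spermidine and spermine for oxidation or export, was at 21.3, 26.8 and 22.3 CPM in WT 1, 2 and 3, and at 14.8, 23.6 and 23.9 CPM in *Sirt6* KO 1, 2 and 3. *Sirt6* KO 1 was the lowest library and the others overlapped (log2 fold change -0.18, SE 0.20, 95% interval -0.64 to 0.29, edgeR adjusted p = 0.565). The TPM ratio of *Sat1* to *Smox* was 0.160, 0.248 and 0.0657 in WT 1, 2 and 3, and between 0.0716 and 0.0738 in *Sirt6* KO (log2 difference -0.92, exact permutation p = 0.4). That difference was -1.45 without WT 3 and -0.49 without WT 2.

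**Figure D3:**
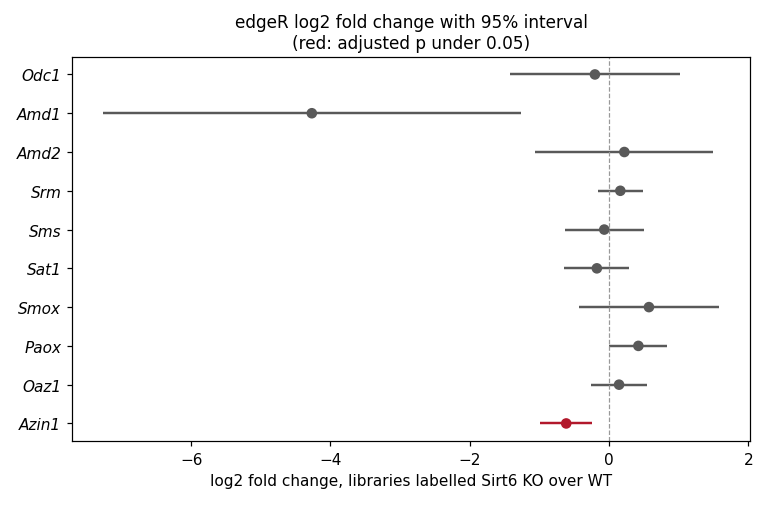
Log2 fold change of each polyamine gene, libraries labelled *Sirt6* KO over WT (horizontal axis), from edgeR with its 95% interval as a bar. Red marks an adjusted p under 0.05, which only *Azin1* has (-0.62, interval -0.99 to -0.24); the interval of *Amd1* (-7.27 to -1.27) is the widest, and 7 intervals cross 0.

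The order of the levels is given per unit of length, in TPM, as mean ± SD over 3 libraries. In WT the most abundant was *Amd2* (914 ± 678), followed by *Smox* (333 ± 179), *Odc1* (303 ± 201), *Oaz1* (298 ± 20.3) and *Amd1* (261 ± 248), whose values ran into each other within their SDs. Below them came *Sms* (114 ± 20.7), which the SD of *Amd1* also reached, then *Sat1* (42.3 ± 7.13), *Azin1* (29.4 ± 3.50), *Srm* (9.52 ± 0.909) and *Paox* (4.63 ± 0.854), each apart from its neighbor by more than the SDs. In *Sirt6* KO *Amd2* was again first (1034 ± 176) and apart from *Smox* (475 ± 111). *Smox*, *Oaz1* (308 ± 57.8) and *Odc1* (255 ± 94.9) followed without clear gaps, then *Sms* (103 ± 26.7), *Sat1* (34.6 ± 7.79) and *Azin1* (17.7 ± 3.68). *Amd1* (11.8 ± 6.69) was there within its SD of both *Azin1* and *Srm* (9.82 ± 0.687), and *Paox* was last (5.56 ± 0.547). The TPM of *Amd1* and *Amd2* depends on how reads were divided between them.

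Taken as ratios of TPM within a library, none of the 7 pairs of members passed after adjustment (adjusted p = 0.7 for each), a design in which 3 libraries against 3 cannot go below 0.1 unadjusted. The ratio of *Odc1* to *Azin1* was 6.31, 5.88 and 19.9 in WT 1, 2 and 3, and 13.4, 16.7 and 12.3 in *Sirt6* KO 1, 2 and 3 (exact permutation p = 0.4). WT 3 was the highest, and the *Sirt6* KO libraries lay between it and the other WT libraries. The log2 difference was 0.63, and 1.20 without WT 3, with 0.37 and 0.32 without WT 1 and WT 2. That of *Smox* to *Paox* was 50.4, 39.8 and 147 in WT and 70.2, 91.2 and 92.8 in *Sirt6* KO, so that all 3 *Sirt6* KO values again lay between WT 3 and the others (exact permutation p = 0.6). Its log2 difference was 0.34, and 0.91 without WT 3, with 0.14 and -0.04 without WT 1 and WT 2. *Amd1* and *Amd2* together came to 3.15 to 5.60 times the TPM of *Odc1* in WT and 3.00 to 6.71 times in *Sirt6* KO (log2 difference 0.03, exact permutation p = 1), a sum chosen after the data were seen.

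**Figure D4:**
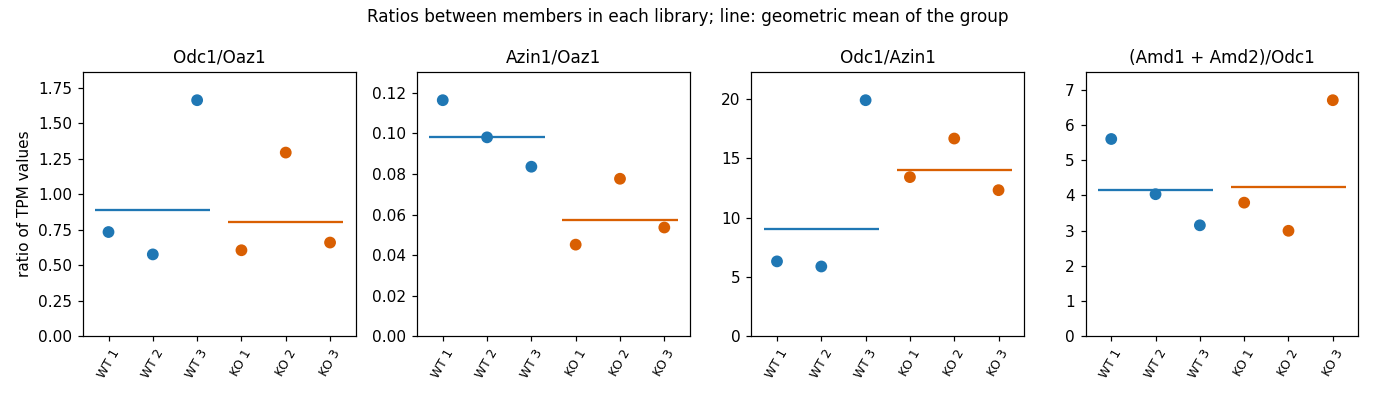
Ratios of TPM between polyamine genes (vertical axes, from 0) in WT 1 to 3 (blue) and *Sirt6* KO 1 to 3 (orange), with the geometric mean of each group as a line. The ratio of *Azin1* to *Oaz1* separates the groups (0.0836 to 0.116 against 0.0452 to 0.0777), and in the other 3 panels the groups overlap.

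For the regulated steps, the genes with the most similar profile over the 6 libraries were found by the distance between log2 CPM profiles, each centered and scaled to unit length (0 for the same shape). For *Odc1* they were *Eif3j1* (distance 0.199), *Atp6v0b* (0.202) and *Mfap1b* (0.204). *Eif3j1*, a translation initiation factor subunit, was at 6.78, 5.86 and 55.3 CPM in WT 1, 2 and 3, and at 14.5, 27.2 and 11.1 CPM in *Sirt6* KO 1, 2 and 3, with WT 3 the highest and *Sirt6* KO 2 next, as for *Odc1*. For *Amd1* they were *Hdac7* (0.0790), *Tnmd* (0.1001) and *Mark1* (0.111), of which *Tnmd*, a tendon gene, was at 21.4 and 17.7 CPM in WT 1 and WT 2 and at 5.45 to 8.25 CPM in the other 4 libraries. For *Smox* they were *Rmi2* (0.116), the antisense gene *Epb41l4aos* (0.123) and *Slc35b1* (0.132), and for *Sat1* *Neu2* (0.198), *Ccdc189* (0.201) and *Vat1l* (0.204). None of these 12 genes was called (edgeR adjusted p from 0.145 to 0.845). They were picked for profiles like those of members that were not called, so this is no separate result.

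Around the 10 genes, 36 further genes of polyamine supply, use and transport were listed, of which 28 were tested: 1 was called higher (*Dohh*) and 1 lower (*Cav1*), beside 7.85% and 8.39% of all genes. DESeq2 called 5, 1 of them lower, beside 19.8% of all genes called in either direction by that test. Point estimates were lower for 15 and higher for 13, with a median log2 fold change of -0.08. *Arg1*, *Arg2*, *Agmat*, *Oaz3*, *Satl1*, *Aoc1*, *Mat1a* and *Atp13a4* were too low to be tested.

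*Dohh* encodes deoxyhypusine hydroxylase, which completes the spermidine-derived residue hypusine on the translation factor eIF5A. It was at 25.9, 26.6 and 29.9 CPM in WT 1, 2 and 3, and at 45.6, 40.2 and 41.4 CPM in *Sirt6* KO 1, 2 and 3. The groups were well apart, and the mean rose from 27.5 ± 2.14 to 42.4 ± 2.84 CPM (SD, n = 3; log2 fold change 0.63, SE 0.11, edgeR adjusted p = 0.0164). It was higher under all 16 alternatives and called in 11. It was not called with the trend over GC content removed (0.34, adjusted p = 0.0883), nor without WT 1, WT 2, *Sirt6* KO 1 or *Sirt6* KO 3 (adjusted p from 0.0565 to 0.0818). The other 3 genes of that step were not called, among them *Eif5a* itself (243, 259 and 329 CPM in WT, 308, 313 and 298 CPM in *Sirt6* KO, log2 fold change 0.14, edgeR adjusted p = 0.510).

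*Cav1*, caveolin 1, a membrane protein of caveolae linked to polyamine uptake, was at 181, 202 and 121 CPM in WT 1, 2 and 3, and at 109, 90.8 and 83.3 CPM in *Sirt6* KO 1, 2 and 3. Its mean fell from 168 ± 41.8 to 94.4 ± 13.3 CPM (SD, n = 3; log2 fold change -0.83, SE 0.21, edgeR adjusted p = 0.0365), with WT 3 the nearest to the *Sirt6* KO libraries. It was lower under all 16 alternatives and called in 8, and leaving out any library but WT 3 ended the call (adjusted p from 0.0817 to 0.138), as did removing the GC trend (-0.60, adjusted p = 0.111) and limma with either pseudocount (-0.74 and -0.75, adjusted p = 0.0610 and 0.0602). *Cav1* is abundant in endothelium and fat. The 5 endothelial markers, all above 1 CPM in every library, summed to 224, 249.5 and 136 CPM in WT 1, 2 and 3 and to 155 to 161 CPM in *Sirt6* KO. Their log2 fold changes ran from -0.70 (*Pecam1*) to 0.04 (*Kdr*). The 5 adipocyte markers summed to 123 to 249 CPM in WT and 160 to 281 CPM in *Sirt6* KO, most of which was *Fabp4*. *Adipoq* was at 7.96, 9.25 and 0.768 CPM in WT 1, 2 and 3, and at 4.17, 19.0 and 8.33 CPM in *Sirt6* KO 1, 2 and 3. None of these 10 markers was called. Their part in the level of *Cav1* was not tested.

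In the other groups no gene was called. The group listed under S-adenosylmethionine supply had 6 tested genes, 4 lower and 2 higher. Of these, only *Mat2a* and *Mat2b* encode the enzyme that makes S-adenosylmethionine, and the others use it or act on its product. *Mat2a* was at 266, 233 and 366 CPM in WT and 243, 264 and 282 CPM in *Sirt6* KO (log2 fold change -0.13, edgeR adjusted p = 0.640). *Mat2b* had a log2 fold change of -0.16 (edgeR adjusted p = 0.343). The group listed under ornithine and arginine supply had 2, both with higher estimates. *Oat* encodes ornithine aminotransferase (0.11, edgeR adjusted p = 0.606). The other, *Azin2*, encodes an antizyme inhibitor, as *Azin1* does, and no supply enzyme. Its log2 fold change was 0.46 (edgeR adjusted p = 0.153), and it is named here after its values were seen. Methionine salvage, which recycles the methylthioadenosine left by both synthases, had 6, of which 4 were lower and 2 higher. *Oaz2*, the second antizyme, had a log2 fold change of 0.15 (edgeR adjusted p = 0.521), and *Slc3a2*, a transporter subunit, one of -0.21 (edgeR adjusted p = 0.246). A further 5 genes, named after their values were seen, had an unadjusted p under 0.05 without passing the adjustment: *Gamt* (0.91), *Sat2* (0.71), *Atp13a2* (0.59) and *Enoph1* (0.49) with higher estimates on the log2 scale, and *Eif5a2* (-0.89) with a lower one. In each the groups did not overlap. Over the whole list, 7 of the 28 tested genes had such a p and 8 had groups that did not overlap, beside 35.3% and 40% of all genes tested.

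**Figure D5:**
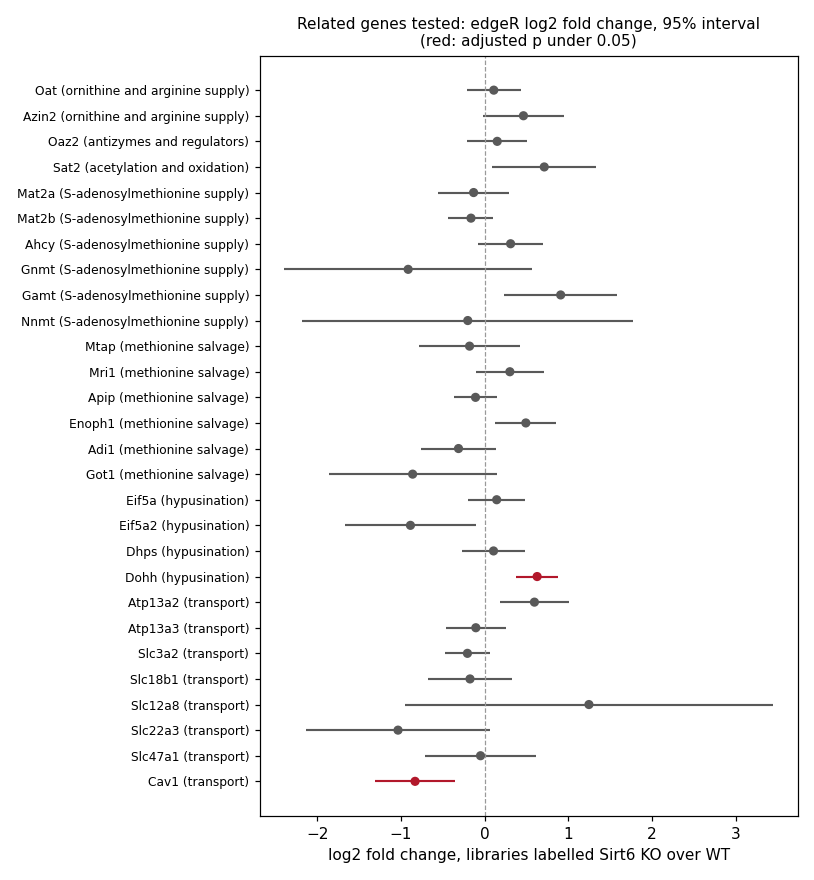
Log2 fold change, libraries labelled *Sirt6* KO over WT (horizontal axis), with 95% interval, of the 28 tested genes around polyamine metabolism, in order of role. Red marks an adjusted p under 0.05: *Dohh* at 0.63 and *Cav1* at -0.83.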

How the data were processed

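Poly-A RNA of 3 WT and 3 *Sirt6* KO samples of mouse GAS muscle was sequenced by the authors on a HiSeq instrument with paired reads of 100 bases. The submitters' processing notes name bcl2fastq 2.20.0, FastQC 0.11.7, HISAT2 2.1.0, Bowtie2 2.3.4.1, StringTie 2.1.3b and the mm10 build, whereas the reporting summary names STAR. The labels name a stranded TruSeq kit and the methods another. Use of strand and treatment of reads with several matches are not given in the sources used here. The deposited counts are whole read counts per gene from StringTie, not normalized. The deposited FPKM values are scaled by the authors to length and depth, and the deposited TPM values to a fixed sum per library.

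Counts were fitted in R 4.3.3 over the whole table with edgeR 4.0.16 (filterByExpr, TMM, quasi-likelihood test, Benjamini-Hochberg adjustment, threshold 0.05), *Sirt6* KO against WT, and 13801 genes were tested. The common biological coefficient of variation was 24.1%. The fit was also tried on simulated counts, drawn with the same dispersion for every gene. These do not cover uneven libraries such as WT 3. The labels number the samples without saying that each is a separate animal, so p-values measure the spread between these libraries. Same-group libraries differed by more than sampling noise (chi-square per gene 44.5 to 315), and none was counted as a duplicate. Permutation tests were exact, two-sided and on the log2 scale. Alternatives were DESeq2 1.42.0, its size factors in edgeR, no filter, at least 10 counts in every library, limma 3.58.1 on log2 FPKM after quantile normalization (pseudocount 1 or 0.1, genes with FPKM above 1 in a library), the replicate number as a block, a lowess trend (span 0.3) over GC content removed per library (known for 96.16% of tested genes), slow-fiber or erythroid marker sums as a covariate, and each library left out. Named genes are all members, every related gene with adjusted p under 0.05, *Mat2a*, *Oat*, *Eif5a*, *Oaz2*, *Slc3a2*, *Sirt6* and the 3 nearest profiles of *Odc1*, *Amd1*, *Smox* and *Sat1*. The members and lists were chosen with earlier results of these data known. Coordinates are RefSeq's on GRCm38, which is mm10.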

Additional observations from a re-analysis of the deposited data

How the results depend on the processing

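The number of polyamine genes called, 1, became 2 by DESeq2 and with the erythroid covariate, 0 with no filter on low counts or with the GC trend removed, and 0 to 4 with each library left out. It stayed at 1 with DESeq2's size factors, at least 10 counts, the slow-fiber covariate and limma. The related genes called, 2, became 5 by DESeq2, 6 with either covariate, 4 by limma with either pseudocount, 0 with the GC trend removed, and 0 to 9 with each library left out. Over all genes, 16.2% were called in the main fit, 19.8% by DESeq2, 27.6% with the erythroid covariate and 28.7% with the slow-fiber covariate. The share was 24.6% by limma, 10% with no filter on low counts and 6.91% with the GC trend removed. It ran from 0.0568% to 32.5% with each library left out. The median log2 fold change of the polyamine genes, 0.04, ran from -0.12 to 0.26 with each library left out. Signs turned, always short of the threshold, for *Odc1* by limma (0.0215 with a pseudocount of 1, 0.0231 with 0.1), for *Srm* (-0.099), *Sms* (0.138), *Sat1* (0.0211), *Oaz1* (-0.0632) and the sum of *Amd1* and *Amd2* (0.1996) with the GC trend removed, and with libraries left out for *Odc1* (-0.54 to 0.66), *Sms* (-0.26 to 0.21), *Sat1* (-0.29 to 0.0204) and the sum (-0.39 to 0.40). *Amd2* ran from -0.17 to 1.18 there, and passed the threshold only without WT 3. The cause was not tested. The replicate numbers do not pair the libraries: same-numbered libraries deviated together with r = -0.106, 0.26 and 0.161 across genes. With the replicate number as a block, 0 polyamine genes and 3 related genes were called, and *Odc1* (0.0249) and the sum of *Amd1* and *Amd2* (0.0252) changed sign; *Azin1* stood at -0.64 (adjusted p = 0.0643). Not every library correlated best with its own number. A planned comparison of protein sequences was not run. All intervals on shares cover counting error only, and 3 libraries a group leave intervals more than 1 log2 unit wide for *Odc1*, *Amd1*, *Amd2*, the sum of the *Amd* genes, *Smox* and *Sms*.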
